A study of Homo sapiens with 10 samples.

Results

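The genes described here encode the numbered centrosomal proteins (CEP genes) and 4 of their partners, PLK4, STIL, NEDD1 and SASS6. They were chosen by symbol alone: CEP followed by a number and at most a further letter, plus those 4 genes. The rule took 26 CEP genes and so 30 genes in all, of the 13279 transcripts in the RNA-Seq table, and all 30 were also listed in the Ribo-Seq table of 11337 transcripts. CEP57L1 was outside the rule and was counted with genes that the tables list under older or other symbols of CEP genes, called older symbols below for short.

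The study treated BJ cells, human fibroblasts immortalised by expression of hTERT and grown in serum, with nutlin-3a, an MDM2 inhibitor that stabilises p53. Each of 5 conditions, untreated control cells and cells given nutlin-3a for 2, 4, 6 or 19 h, had 1 RNA-Seq library from poly(A) RNA and 1 Ribo-Seq library from ribosome-protected fragments, 10 libraries in all. Expression of hTERT is shared by every condition, controls included, and all libraries come from the same line in culture. With 1 library in each condition there is no replicate error, no test was possible, and every value below describes these libraries; errors (SE) are counting errors only, from read numbers recovered from the deposited values, and reads without molecular identifiers are not independent molecules. The 4 treated times are all set against the same control library.

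The read totals behind the FPKM values, inferred from the spacing of the deposited values, were 23845571 to 27554272 in RNA-Seq and 7744902 to 14460726 in Ribo-Seq, with the lowest Ribo-Seq total at 19 h. The p53 targets CDKN1A and MDM2 were 19.2-fold and 17.5-fold of control in RNA at 19 h. All 10 fibroblast markers examined, among them COL1A1 and VIM, were listed at 55.5 to 4337 FPKM (fragments per kilobase of transcript, scaled to the mapped reads of the library) in every library. Of the other cell types' markers, 2 of 5 epithelial markers were listed, at no more than 0.08 FPKM, and 1 of 4 endothelial markers, at no more than 0.282 FPKM. Of 5 leukocyte markers, 3 were listed: PTPRC at 0.054 to 0.246, CD14 at 0.216 to 0.509 and CD68 at 61.4 to 86.4 FPKM.

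A centrosome is a pair of centrioles in a cloud of pericentriolar material, which anchors the γ-tubulin rings that nucleate microtubules. Centrioles are copied a single time per cell cycle: CEP192 and CEP152 recruit the kinase PLK4, PLK4 phosphorylates STIL, and STIL brings SASS6, whose ring sets the symmetry of the new cartwheel. The older centriole carries appendages that dock it at the membrane, where it can serve as the base of a primary cilium, and a flexible linker holds the centriole pair together between divisions. CEP55 stands apart in this family, since it acts at the midbody at the end of cell division. Several of these genes are known as cell-cycle genes, transcribed mostly in S phase, G2 and mitosis.

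At the RNA level, CEP55, PLK4, STIL, CEP128 and CEP72 had the largest falls in deposited FPKM after nutlin-3a. Among the 30 genes, 9 of 12 centriole-duplication genes were at least 2-fold lower at 19 h, whereas the 2 linker genes and 8 of 10 appendage and cilium genes stayed within 2-fold of control. These groups hold only genes that the symbol rule took, and other genes of the same structures are counted further below. Changes counted as calls are log2 ratios to control, with values below 1 FPKM raised to a floor of 1 FPKM, and a gene was called lower or higher when it differed at least 2-fold from the control library. Of the 30 genes, 0 were called lower at 2 and 4 h, then 10 at 6 h and 14 (46.7%) at 19 h. Across all 10468 genes that averaged 1 FPKM or more over the RNA-Seq libraries, the share called lower was 0.0287%, 0.974%, 5.47% and 7.01% in the same order. With a cut-off that slides with expression level, after the study's methods, in place of the 2-fold limit, SASS6 was called lower at 2 h, against 1.81% of all genes, and CEP85, PLK4 and STIL at 4 h, against 3.6%. By that cut-off 9 of the 30 were called lower at 6 h, against 4.81%, and 9 at 19 h, against 4.9%. At each of the 4 times 0 of the 30 were called higher, against 0.726%, 1.34%, 2.04% and 2.89% of all genes. The median log2 change of the 30 was -0.15, -0.33, -0.49 and -0.77 at 2, 4, 6 and 19 h, where that of all genes lay between -0.083 and 0.0024. In bulk RNA, fewer cells carrying a transcript and less of it per cell cannot be told apart.

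**Figure D1:**
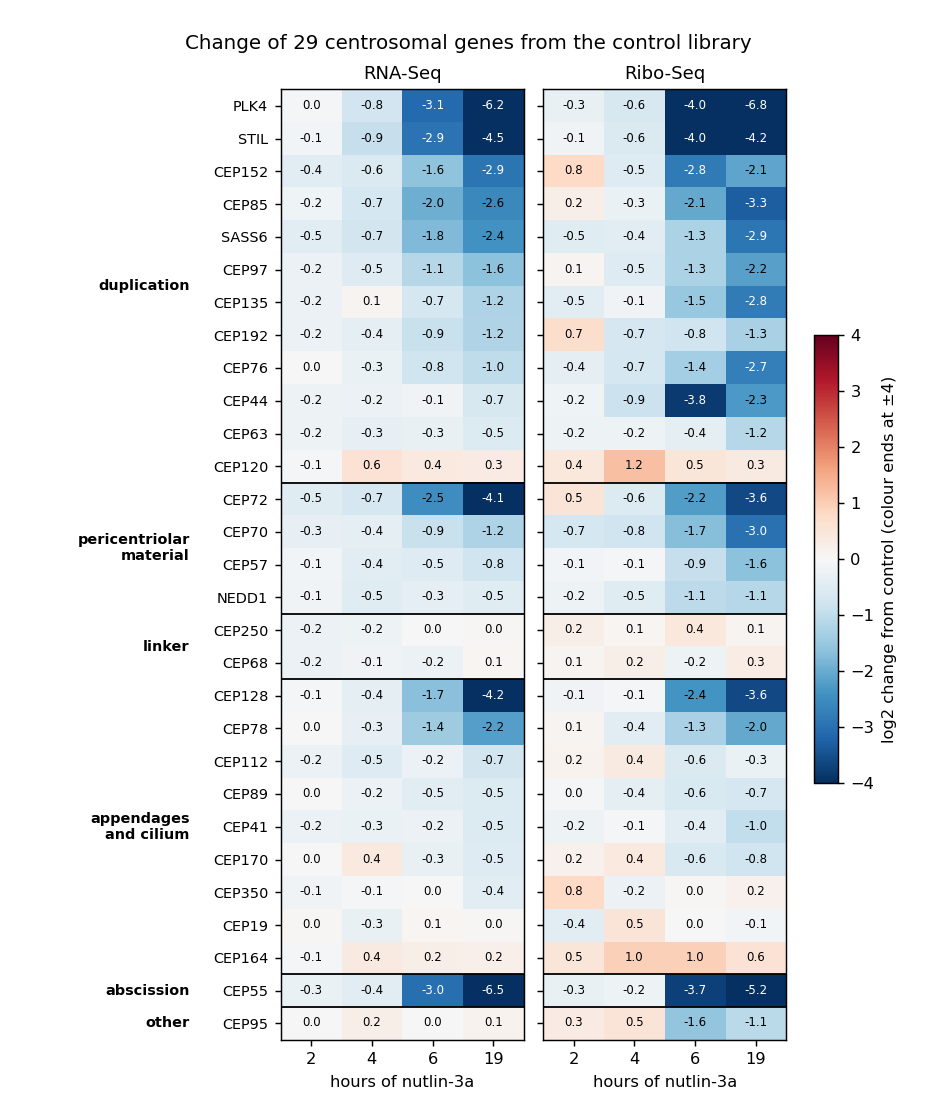
Log2 change of 29 of the 30 genes from the control library at 2, 4, 6 and 19 h of nutlin-3a, in RNA-Seq (left) and Ribo-Seq (right), from the deposited values with no floor. Rows are grouped by role and ordered by the RNA change at 19 h; the printed numbers are log2 changes, blue is lower and red higher, and colour stops at ±4. In RNA-Seq the deepest blue is at 19 h in PLK4, STIL, CEP72, CEP128 and CEP55, while CEP250, CEP68 and CEP164 stay pale or red.

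Of the 12 genes of centriole duplication, 9 were called lower in RNA at 19 h and 0 higher, with a median log2 change of -1.44. With the sliding cut-off the calls of CEP135, CEP192, CEP76 and CEP97 in this group ended. PLK4, the kinase that starts the assembly of a new centriole, had an RNA level of 12.9 FPKM in control and 12.5, 7.58, 1.51 and 0.18 FPKM at 2, 4, 6 and 19 h. The 2 h library matched control within counting error, and each later library was lower than the one before. STIL, which PLK4 phosphorylates, was at 12.5, 11.6, 6.61, 1.62 and 0.567 FPKM in the same order, and SASS6, the cartwheel protein, at 3.69, 2.69, 2.24, 1.08 and 0.683 FPKM. At 19 h PLK4 was 71.8-fold lower than control (log2 -6.17, counting SE 0.34, 18 reads against 1183) and STIL 22.1-fold lower (log2 -4.46, SE 0.17). SASS6 was 5.4-fold lower (log2 -2.43, SE 0.19). These 3 genes ended below 1 FPKM, so on the floored scale their log2 changes of -3.69, -3.64 and -1.88 are limits set by the floor.

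CEP152, the scaffold that holds PLK4 at the centriole wall, was at 4.76 FPKM in control and at 3.51, 3.21, 1.56 and 0.634 FPKM at 2, 4, 6 and 19 h. CEP192, which recruits PLK4 along with CEP152 and also builds mitotic pericentriolar material, was at 9.78, 8.25, 7.41, 5.26 and 4.26 FPKM. Both were lower in every treated library than in control, CEP152 by 7.51-fold at 19 h and CEP192 by 2.3-fold. CEP85, which works with STIL, went from 9.2 FPKM in control to 8.25, 5.71, 2.35 and 1.55 FPKM, a log2 change of -2.57 (SE 0.12) at 19 h. CEP135, a cartwheel and microtubule-wall protein, was at 4.14, 3.54, 4.46, 2.56 and 1.76 FPKM. It was the only gene among the 14 called lower whose 4 h level was above control, by 0.11 on the log2 scale (SE 0.094), and it was 1.23 lower at 19 h.

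CEP97, a partner of CCP110 in the cap that limits centriole length, was at 6.98, 5.92, 4.84, 3.17 and 2.24 FPKM. CEP76, which restrains repeated duplication, was at 3.92, 3.85, 3.27, 2.23 and 1.96 FPKM. Thus the inhibitors of growth and re-duplication were lower along with the assembly factors, CEP97 by 3.12-fold and CEP76 by 2-fold at 19 h. CEP76 was the called gene nearest the limit, at a log2 change of -1.0 (SE 0.15), and CEP57 the nearest outside it, at -0.80 (SE 0.071). With the 2 h library as baseline the 19 h calls of CEP192, CEP70, CEP72 and CEP76 ended, with a pseudocount those of CEP135, CEP70 and CEP76, and with median-of-ratios scaling that of CEP76. CEP72 lost its call because its 2 h level lay less than 2-fold above the floor, and in deposited FPKM it was 12.4-fold lower at 19 h than at 2 h. The other 3 genes of the group were not called: CEP44 had a log2 change of -0.65 (SE 0.19), CEP63 of -0.54 (SE 0.085) and CEP120 of 0.32 (SE 0.072). CEP120, which drives centriole elongation and is needed for cilia, was at 5.91, 5.55, 8.89, 7.81 and 7.4 FPKM, so its highest level was at 4 h, 0.59 above control on the log2 scale (SE 0.071).

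CEP55, the midbody protein that recruits the ESCRT machinery for abscission, had the highest control RNA level of the 30 and, with PLK4 within counting error of it, the largest fall. Its RNA level was 52.4 FPKM in control, then 44.0, 38.6, 6.43 and 0.597 FPKM over the treated times. The first 3 libraries lay close together, and the last 2 stood far below them. The 19 h level was 87.7-fold lower than control (log2 -6.46, SE 0.23, 41 reads against 3295).

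Of the 4 genes of the pericentriolar material, 2 were called lower in RNA at 19 h. CEP72, which helps bring γ-tubulin ring proteins to the centrosome, was at 2.74, 1.97, 1.73, 0.492 and 0.158 FPKM across control, 2, 4, 6 and 19 h, and ended on 10 reads, 17.3-fold below control. CEP70, a γ-tubulin-binding protein, was at 6.37, 5.09, 4.84, 3.41 and 2.73 FPKM, 2.34-fold lower at 19 h. In both genes every treated library was below control and each was below the one before, although the step from 2 to 4 h was within counting error in both.

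The other 2 genes of this group were less changed in RNA. NEDD1, which attaches the γ-tubulin ring to the centrosome and spindle, was among the most abundant, at 47.9, 43.6, 34.4, 37.7 and 34.04 FPKM. Its log2 change was already -0.48 (SE 0.043) at 4 h and was -0.49 (SE 0.042) at 19 h, so its level did not follow the steep drop of PLK4 after 4 h. CEP57, which organises pericentriolar material around the centriole, was at 14.3, 13.2, 10.5, 10.0 and 8.2 FPKM.

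Of the 10 genes of the appendages and the cilium, 2 were called lower in RNA at 19 h, CEP128 and CEP78, and the median log2 change was -0.53. CEP128, a protein of the subdistal appendages, was at 3.89, 3.65, 2.99, 1.21 and 0.206 FPKM, 18.9-fold lower at 19 h (log2 -4.24, SE 0.30, 25 reads). CEP78, a protein of the distal centriole, was at 11.6, 11.5, 9.33, 4.3 and 2.52 FPKM, 4.61-fold lower (log2 -2.21, SE 0.12). In both genes most of the fall lay between 4 and 19 h.

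The remaining 8 genes of this group stayed within 2-fold of control at 19 h, and CEP112 had the lowest log2 change of them, -0.73 (SE 0.13). CEP170, a subdistal appendage protein and the third most abundant of the 30 in control, was at 32.6, 32.5, 42.9, 26.5 and 22.9 FPKM, with its highest level at 4 h. CEP350, a large centrosomal protein that helps to anchor microtubules, was at 8.76, 8.01, 8.39, 8.69 and 6.52 FPKM, near its control level up to 6 h and 1.34-fold lower at 19 h. CEP164, the distal appendage protein that brings TTBK2 to the future basal body, was at 10.5, 10.1, 13.6, 12.4 and 12.2 FPKM. CEP164 lay above control at 19 h by 0.21 on the log2 scale (SE 0.051), and like CEP120 it was above control by more than 1.96 counting SE. Of the 30 genes 23 were below control by that measure, which holds for these libraries only. The share of all genes below control by it was not counted, so the 23 cannot be set against a background.

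The 2 linker genes were nearly level. CEP250, the fibre protein C-Nap1, was at 7.54, 6.34, 6.55, 7.64 and 7.78 FPKM, and CEP68 at 2.64, 2.26, 2.38, 2.23 and 2.77 FPKM. Their log2 changes at 19 h were 0.044 (SE 0.051) and 0.070 (SE 0.10), within counting error of control. CEP95, placed in no group, had a log2 change of 0.14 (SE 0.11).

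**Figure D2:**
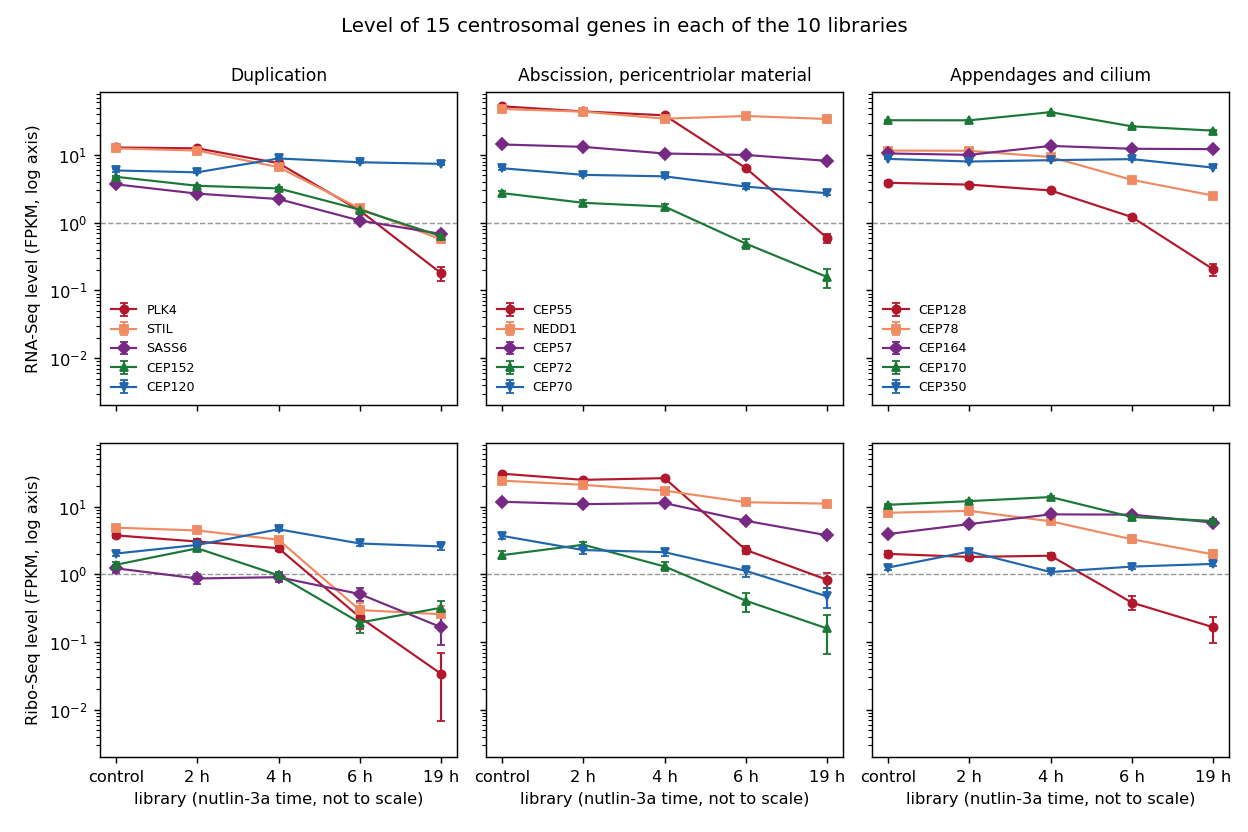
RNA-Seq level (top) and Ribo-Seq level (bottom), in FPKM on a log axis, of 15 of the 30 genes in the control library and at 2, 4, 6 and 19 h of nutlin-3a; bars are ±1 counting SE of a single library and the dashed line is the floor of 1 FPKM. PLK4, STIL, CEP55 and CEP128 bend downwards after 4 h in both assays, and CEP120, CEP164, CEP170 and NEDD1 stay above the floor throughout.

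Falls of at least 2-fold between neighbouring times began after 4 h. In deposited FPKM, with no floor, 0 of the 30 genes fell at least 2-fold in RNA from 2 to 4 h, against 1.22% of all genes, 9 from 4 to 6 h, against 4.08%, and 6 from 6 to 19 h, against 2.01%. The 9 were CEP55, PLK4, STIL, CEP72, CEP128, CEP85, CEP78, SASS6 and CEP152, with log2 changes between -2.59 (CEP55, SE 0.073) and -1.04 (CEP152, SE 0.12). The 6 that fell again from 6 to 19 h were CEP55, by 10.8-fold, PLK4, by 8.4-fold, CEP128, by 5.89-fold, CEP72, by 3.11-fold, STIL, by 2.86-fold, and CEP152, by 2.46-fold. With the floor the counts were 0, 8 and 1, against 1.13%, 3.86% and 1.28%, and the last is limited by the floor, since at 6 h PLK4, STIL, CEP128 and CEP152 were less than 2-fold above it and CEP72 was below it. For the 14 genes called lower at 19 h, a median 20.1% of their log2 fall was reached by 4 h and 65.6% by 6 h, with a range at 6 h from 39.6% to 81.0%. A median 8.85% of the fall was present at 2 h.

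Promoter letters were read for these genes because 14 of them moved together, and because cell-cycle genes often carry a CHR, the site bound by the MuvB core of the DREAM complex. RefSeq windows of 300 bases, 250 before to 50 after each transcript start in GRCh38.p14, were matched by symbol for 27 of the 30 genes, 13 of the 14 called lower and 14 of the others. The CHR core TTTGAA was sought on both strands, as were CCAAT, the NF-Y box that often stands upstream of a CHR, and 4 E2F strings, TTTCCCGC, TTTCGCGC, TTTGCCGC and TTTGGCGC. No string contains another. The 30-base stretches below surround the CHR core in 7 genes called lower at 19 h, with the matched letters in capitals (TTCAAA is the core read on the opposite strand):
PLK4: ggcaagcggcgggagattTTCAAAatggga
CEP55: gcagccgcgggaTTCAAActcccggaagcg
CEP72: ccgagggctccgTTTGAAacatggcgcggg
CEP152: ctggcgcccgctTTCAAAcagccgtacttt
CEP135: ctccgcgccattTTCAAActgctctagcgc
CEP192: cggcttcctcgcTTCAAAtccaggaacgcg
CEP76: tgtccgccactgTTTGAAaacagttggcgc

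In order, these lie at chr4:127880913-127880942 (plus strand), chr10:93496597-93496626 (plus), chr5:612342-612371 (plus), chr15:48811231-48811260 (minus), chr4:55948936-55948965 (plus), chr18:12991156-12991185 (plus) and chr18:12702742-12702771 (minus). Counted from a RefSeq transcript start, the capitals begin at base 39 in PLK4, base -3 in CEP55, base 15 in CEP72, base -179 in CEP152, base 4 in CEP135 and base -194 in CEP192, where positive bases lie downstream of the start. CEP76 has 2 starts that share its site, at bases 19 and -36, so 5 of the 7 sites lie within 50 bases of a start. CEP55 held a further match at base -116.

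The same core was also in windows of genes that were not called lower. CEP57 and CEP120 are shown for comparison, with their matched letters in capitals:
CEP57: cgcgaaatccgcTTTGAAcctgccccgccc
CEP120: aagctacttgttTTCAAAggtcggaaattt

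These are at chr11:95789935-95789964 (plus strand) and chr5:123423818-123423847 (minus strand). The capitals begin at base -67 in CEP57 and base 8 in CEP120. Of the other genes not called lower, CEP44 held the core at base 16, CEP89 at base -143 and CEP112 at base -187. Thus cores within 50 bases of a start were also in genes not called lower, and their share over all genes was not counted. STIL and SASS6 held no TTTGAA in their windows and each held an E2F string, in capitals:
STIL: gcgagcttgtgTTTGCCGCctcagttcccg
SASS6: gcagaagccgaGCGCCAAActcaaacttta

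They are at chr1:47314140-47314169 and chr1:100132897-100132926, both on the minus strand. By count, the CHR core was in a window of 12 of the 27 genes, 7 of the 13 called lower and 5 of the 14 others, against 13.5% of 7724 kept genes with a window and 15.2% of all 35116 windows. CCAAT was in 8 of the 13 and 6 of the 14, against 43.9% of kept genes and 34.6% of windows, and an E2F string was in 3 of the 13 and 4 of the 14, against 7.09% and 3.31%. Genes with several starts have more windows and so more chances of a match. A match here is a description of letters, and binding was not measured.

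Ribosome density, the Ribo-Seq FPKM of a gene, was also lower in many of these genes. Of the 25 genes that averaged 1 FPKM or more in Ribo-Seq, 0 were called lower at 2 and 4 h, 10 at 6 h and 11 at 19 h, against 0.402%, 1.02%, 8.41% and 14.6% of 9710 genes. The genes called higher were 0, 1, 0 and 0, against 1.92%, 2.62%, 5.49% and 6.12%. The median log2 change was 0.041, -0.22, -0.78 and -0.98, where that of all genes was 0.0048, 0.076, -0.022 and -0.18. SASS6, CEP135, CEP112, CEP44 and CEP95 had a lower mean and were left out of these counts. Depth sets a limit here: the 30 genes had a median of 177.5 Ribo-Seq reads in control and 28.5 at 19 h, when 17 of them were below 1 FPKM. Footprint quality is a further limit. In the study's read statistics, the nutlin-3a Ribo-Seq series had a lower share of reads in the main reading frame than its other Ribo-Seq libraries. The share of reads in untranslated sequence also differed between its control, 6 h and 19 h libraries. The part of this in the density and TE values was not tested.

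PLK4 had a ribosome density of 3.76 FPKM in control and 3.05, 2.43, 0.233 and 0.034 FPKM at 2, 4, 6 and 19 h, the last from 1 read. STIL was at 4.89, 4.45, 3.24, 0.297 and 0.258 FPKM, and CEP55 at 30.6, 24.9, 26.3, 2.3 and 0.832 FPKM. In these 3 genes the break between 4 and 6 h seen in RNA was also present in density, and the 6 h values were 0.0619, 0.0608 and 0.0749 of control. CEP128 was at 2.01, 1.81, 1.88, 0.383 and 0.166 FPKM, CEP85 at 4.52, 5.34, 3.76, 1.08 and 0.459 FPKM, and CEP78 at 8.12, 8.67, 6.08, 3.3 and 1.97 FPKM. CEP97 was at 3.85, 4.17, 2.72, 1.61 and 0.853 FPKM, CEP70 at 3.7, 2.28, 2.13, 1.13 and 0.473 FPKM, and CEP76 at 2.89, 2.21, 1.76, 1.11 and 0.439 FPKM. All 9 of these genes were called lower in density at 19 h as in RNA, although the density call of CEP128 ended with the 2 h library as baseline and those of CEP128 and CEP76 with the sliding cut-off.

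CEP152, CEP72 and CEP192 were called lower in RNA but not in density, since their control densities of 1.39, 1.92 and 1.98 FPKM lay less than 2-fold above the floor. Without the floor their log2 density changes at 19 h were -2.11 (SE 0.41), -3.59 (SE 0.86, from 3 reads) and -1.28 (SE 0.23). CEP152 was at 1.39, 2.42, 0.969, 0.194 and 0.321 FPKM, and CEP192 at 1.98, 3.21, 1.25, 1.15 and 0.811 FPKM. Both were above control at 2 h and below it at every later time. CEP350, the longest of the 30 transcripts at 13491 nt, was likewise highest at 2 h, at 1.26, 2.18, 1.08, 1.3 and 1.43 FPKM. Over all genes the 2 h density change rose by 0.12 per doubling of transcript length, and the part of this trend in the 3 genes was not tested.

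CEP120 and CEP164 were the genes with the largest density gains. CEP120 was at 2.03, 2.72, 4.63, 2.86 and 2.58 FPKM, 2.28-fold of control at 4 h (log2 1.19, SE 0.16), which was the 1 call of a higher density. CEP164 was at 3.94, 5.53, 7.69, 7.62 and 5.83 FPKM, 1.95-fold of control at 4 h and 1.93-fold at 6 h, just short of the 2-fold limit. In both genes all 4 treated libraries were above control and the 4 h value was the highest, in CEP164 within counting error of the 6 h value.

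**Figure D3:**
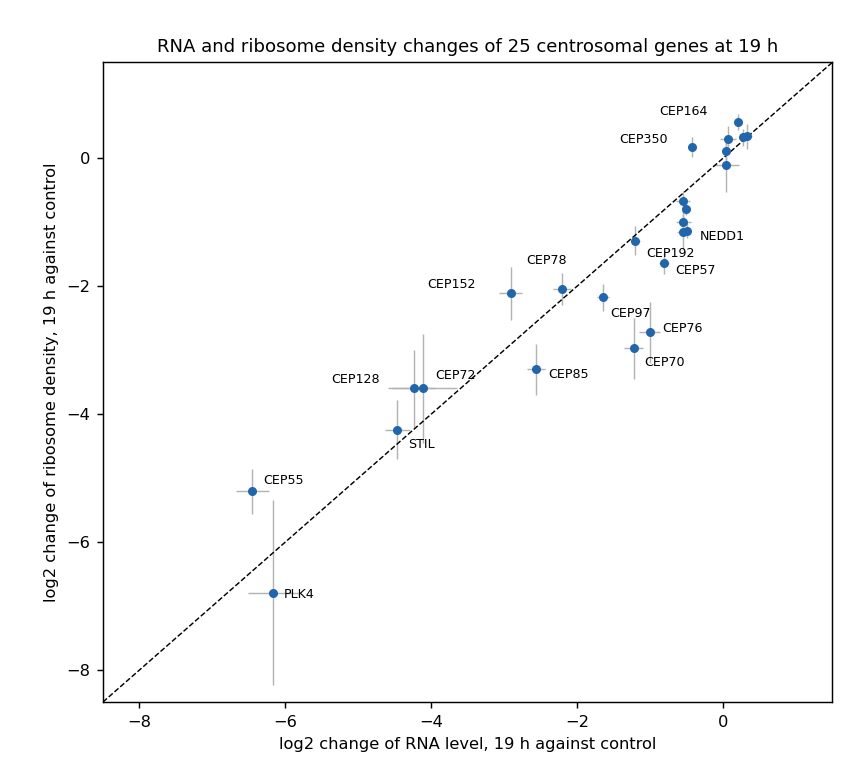
Log2 change at 19 h in RNA level (horizontal) against that in ribosome density (vertical), without a floor, for the 25 genes that averaged 1 FPKM or more in both assays; bars are ±1 counting SE and the dashed line marks equal change. Points run from PLK4 and CEP55 at the lower left to CEP164 at the upper right, with CEP57, NEDD1, CEP70 and CEP76 below the line and CEP55, CEP152, CEP128 and CEP350 above it.

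Translation efficiency (TE), the log2 ratio of Ribo-Seq to RNA-Seq FPKM, was low for these genes in control cells. Its median over the 25 genes was -0.98, with a range from -2.80 (CEP350) to 0.050 (CEP89), against -0.42 over 9556 genes, and 22 of the 25 were below that median. The 30 transcripts were longer than most, with a median of 3908 nt against 2922 nt. Among the 6168 genes within their range of lengths the median TE was -0.78. The values of both assays fitted the same length per transcript, and the part of untranslated sequence in these TE levels was not tested.

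The median change of TE after nutlin-3a was small by comparison with that of RNA. Called lower were 0 of the 25 at each of the 4 times, against 0.22%, 0.303%, 3.13% and 4.58% of genes at 2, 4, 6 and 19 h, and called higher were 1, 0, 2 and 3, against 1.19%, 1.37%, 3.61% and 2.1%. The median TE change was 0.019, 0.15, 0.034 and 0.078, where that of all genes was 0.046, 0.16, -0.0021 and -0.081. The sign of these medians depended on the processing: without the floor they were -0.12 at 6 h and -0.085 at 19 h. The 3 higher calls at 19 h, PLK4, STIL and CEP152, had Ribo-Seq values below the floor, and without it their TE changes were -0.62 (SE 1.49), 0.22 (SE 0.49) and 0.80 (SE 0.44). The floor also removed lower calls. Without it STIL and CEP152 were at least 2-fold lower in TE at 6 h, by log2 changes of -1.09 (SE 0.40) and -1.23 (SE 0.47), against 3.75% of all genes, and CEP70 and CEP76 at 19 h, by -1.74 (SE 0.49) and -1.72 (SE 0.50) on 10 Ribo-Seq reads each, against 5.47%. Of the 30 genes, 10 were lower and 3 higher in TE by more than 1.96 counting SE at 6 h, and the same numbers at 19 h, whereas at 2 and at 4 h 0 were lower and 10 higher. The share of all genes beyond that limit was not counted. At 4 h the median TE change of all genes was itself 0.16, and the sliding cut-off called 10.7% of them higher and 1.15% lower. Over the 13 genes with all 4 values at 1 FPKM or more, the median TE change at 19 h was 0.022 and 6 of the 13 were below 0.

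The largest TE changes at 19 h among genes with at least 20 reads in each library used were, with the floor, in CEP57, NEDD1 and CEP350, and without it CEP63, at -0.61, was level with CEP350. CEP57 had a ribosome density of 11.8, 10.9, 11.3, 6.19 and 3.78 FPKM, and its TE changes at 2, 4, 6 and 19 h were 0.0009, 0.38, -0.42 and -0.84 (SE 0.18 at 19 h). NEDD1 had a density of 24.2, 21.0, 17.2, 11.6 and 11.1 FPKM, and TE changes of -0.072, -0.015, -0.71 and -0.64 (SE 0.12). Both genes had a density more than 2-fold below control at 19 h with RNA within 2-fold of it, and in both the TE was near or above control up to 4 h and below it at 6 and 19 h. The 19 h density call of NEDD1 ended with median-of-ratios scaling and with the 2 h baseline, and the calls of both genes ended with the sliding cut-off. For CEP350 the TE changes were 0.92, -0.16, 0.059 and 0.60 (SE 0.16 at 19 h), and set against the 2 h library it was -0.31 at 19 h. CEP164 was above its control TE at all 4 times, by 0.56, 0.59, 0.72 and 0.35 (SE 0.14 at 19 h).

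The 2 transcripts with most reads in the control Ribo-Seq library took 13.7% of its recovered reads, and 3.62% to 11.6% at the treated times. A shift in that share moves the FPKM of every other gene, and its part in the density and TE values was not tested beyond the rescaling of libraries given among the alternatives.

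Other genes of the same structures were counted from lists set with earlier results of these data known. The counts are on the RNA level at 19 h, where 7.01% of all genes were called lower. Of 11 kept genes listed under older or other symbols of CEP genes, CEP57L1 among them, 3 were called lower and 0 higher (median log2 change -0.72). CNTRL, also named CEP110, was at -2.05 and CEP57L1 at -1.69. Of 24 other centriole genes, 8 were lower and 0 higher (median -0.66), led by the linker kinase NEK2, below the floor at 19 h, at -4.38 and the centriole-wall protein POC1A at -3.01, with TUBE1 at 0.69 and CROCC at 0.28 the highest. Of 22 genes of γ-tubulin complexes, pericentriolar material and the augmin complex, 11 were lower and 0 higher (median -0.99), with the augmin subunits HAUS8, also below the floor, at -3.84 and HAUS5 at -1.99 the lowest and AKAP9 at 0.73 and TUBG2 at 0.39 the highest. For the 30 genes described here the same count and median were 14 and -0.77.

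The medians of a mitotic list and of a cilium list lay on either side of that of the 30 genes. Of 41 kinetochore genes, which attach chromosomes to the spindle, 39 were lower and 0 higher, with a median of -3.77, where 19 of the 41 ended below 1 FPKM and have changes limited by the floor. Of 17 kept genes of intraflagellar transport and the BBSome, which build and serve the cilium, 0 were lower and 0 higher, with a median of 0.32 and a range from -0.45 (IFT122) to 0.87 (IFT20). No list was tested against another.

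**Figure D4:**
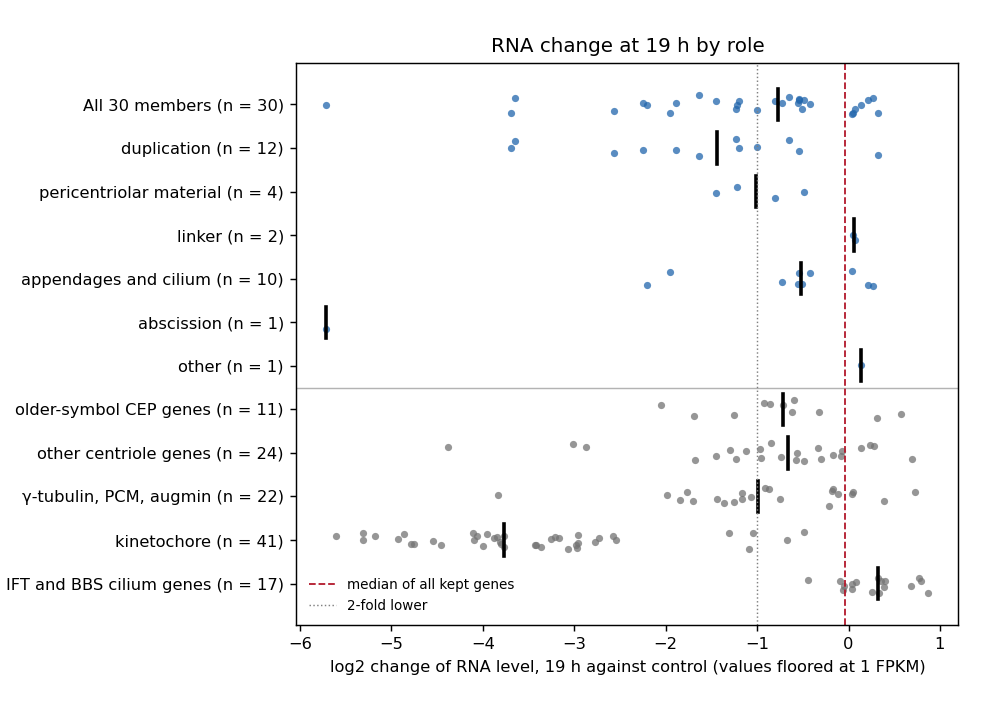
Log2 change in RNA level at 19 h against control, on values floored at 1 FPKM, for the 30 genes and their roles (blue) and for 5 lists of related genes (grey); each point is a gene and each black bar the median of its row. The dashed red line is the median of all kept genes at -0.042 and the dotted line marks 2-fold lower. Duplication genes centre on -1.44 and linker genes on 0.057, while kinetochore genes centre on -3.77.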

How the data were processed

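RNA-Seq and Ribo-Seq (cycloheximide-treated lysates, monosome fragments) were each made from 5 cultures of BJ cells, 1 library per condition. The authors deposited both tables as FPKM. Per the methods, they aligned reads with Bowtie to a reference of 1 protein-coding transcript per Ensembl release 65 gene (hg19) and kept unique hits. Reads of pseudogene copies, which RefSeq lists for CEP170, CEP192, CEP19 and CEP164, may therefore be counted to the parent gene. The methods state coding-sequence reads for Ribo-Seq levels, while the column headers say total. For 99.7% of 11258 transcripts the same length fitted the values of both assays, so Ribo-Seq was scaled to the length used for RNA-Seq. This does not show which reads were counted. The stated floor of 1 FPKM had not been applied to the deposited values and was applied here. The assay of each table was taken from its name. The study notes effects of sequencing run, and the labels name no run.

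Values here are FPKM to 3 decimals, so library totals, transcript lengths and read numbers were recovered from their spacing for 99.7% of 11258 transcripts in both tables. Counting SEs of log2 ratios came from these reads. Kept genes had a mean of at least 1 FPKM over the 5 libraries of an assay (both assays for TE), and calls needed a 2-fold change. Values in every library were given for PLK4, STIL, SASS6, NEDD1, CEP55, each gene changed at least 2-fold in RNA at 19 h, the 3 with the highest control RNA and the 3 with the largest TE change at 19 h on at least 20 reads. CEP120, CEP164, CEP250 and CEP68 were added after their values were seen, and 1 gene is counted but not reported here by name. Genes and lists were chosen with earlier results of these data known. Alternatives were no floor, a pseudocount of 1 FPKM, other filters, the 2 h library as baseline, median-of-ratios scaling, removal of a length trend, a sliding cut-off of 1.75 local SDs, and inclusion of older symbols. The steps were tested on simulated tables of 11219 transcripts, in which lengths were recovered within 1%. Python 3.11.15, numpy 2.4.6, pandas 2.3.3 and matplotlib 3.10.9 were used. Gene identifiers and promoter windows were matched by symbol to RefSeq (GRCh38.p14), and no hg19 coordinates were used.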

Additional observations from a re-analysis of the deposited data

Results flagged for a closer look

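Some genes moved in opposite directions at different times, each by at least 1.5-fold and more than 1.96 counting SE in both directions, on the log2 scale with no floor. Each such difference rests on 1 library per time and was not tested. The TE of CEP55 was -0.71 from control at 6 h and 1.25 at 19 h, the latter from 17 Ribo-Seq and 41 RNA-Seq reads. The ribosome density of CEP152 was 0.80 above control at 2 h, then -2.84 at 6 h and -2.11 at 19 h, and its TE was 1.24 at 2 h and -1.23 at 6 h. The ribosome density of CEP192 was 0.70 above control at 2 h and then -0.66 at 4 h, -0.78 at 6 h and -1.28 at 19 h.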

How the results depend on the processing

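No paired analysis was possible because each condition had 1 library per assay and the labels carry no replicate numbers, and for the same reason no library could be left out of a condition. Of 210 alternative counts, 176 stayed within 1.5 times and 34 did not, and of 93 alternative medians 14 changed sign. The medians of RNA at each time and of density at 4, 6 and 19 h kept their direction, while the density median at 2 h fell to -0.059 with the length trend removed and the TE medians, all above 0, reached lowest values of -0.045, -0.015, -0.30 and -0.20 at 2, 4, 6 and 19 h. For the count lower in RNA, the sliding cut-off gave 1 at 2 h, 3 at 4 h and 9 at 19 h (1.81%, 3.6% and 4.9% of all genes), and a mean of at least 5 FPKM gave 5 at 6 h and 6 at 19 h. For the count lower in density, older symbols gave 1 at 2 h, the 2 h baseline 4 at 4 h, a mean of at least 5 FPKM 3 at 6 h and 4 at 19 h, and the sliding cut-off 5 and 7 (4.67% and 4.74% of all genes). For the count higher in density, the pseudocount, a mean of at least 5 FPKM and the 2 h baseline each gave 0 at 4 h, the sliding cut-off 2 at 4 h (5.41%), and older symbols 1 at 19 h. For the count higher in TE at 2 h, the pseudocount and a mean of at least 5 FPKM gave 0, removal of the length trend 2 and the sliding cut-off 4 (5.58%), and at 4 h the 2 h baseline gave 1. At 6 h, no floor, the pseudocount and a mean of at least 5 FPKM gave 0 and the 2 h baseline 1, and at 19 h no floor and the pseudocount gave 1 and a mean of at least 5 FPKM 0. For the count lower in TE, older symbols gave 1 at 2, 6 and 19 h, the 2 h baseline 3 at 4 h, and no floor 2 at 6 h and 2 at 19 h (3.75% and 5.47% of all genes). Shares over all genes were not counted with the pseudocount, 2 h baseline, mean of at least 5 FPKM or length trend removed. The same holds for calls higher in TE without the floor. Older symbols leave the main shares of all genes unchanged. A higher filter removes genes by its construction; the cause of the other moves was not tested. In RNA at 19 h the calls of CEP135, CEP192, CEP70, CEP76 and CEP97 ended with the sliding cut-off. Of 250 alternative values of single genes at 19 h, 45 moved by more than 1.96 counting SE and 9 changed sign, 8 of them changes under 2-fold, among them the TE change of CEP350 with the 2 h baseline. The ninth, the TE change of PLK4, was 1.78 with the floor and -0.62 without it, on 1 Ribo-Seq read. With a median of 28.5 Ribo-Seq reads per gene at 19 h, the median counting SE was 0.317 for a density change and 0.344 for a TE change.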

Other observations

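Companion lists were also read in Ribo-Seq at 19 h, on values floored at 1 FPKM. Most kinetochore genes ended below that floor in Ribo-Seq at 19 h, among them NDC80 at 0.178 FPKM, so their density changes are limited by it. Of 40 kept kinetochore genes, 37 had a ribosome density at least 2-fold lower than control, with a median log2 change of -3.22, and of 21 genes of γ-tubulin complexes, pericentriolar material and augmin 12 were lower and 1 higher, with a median of -1.16. Of 17 intraflagellar transport and BBSome genes 2 were lower in density, with a median of -0.31, and of the 16 kept for TE 4 were lower and 0 higher, with a median TE change of -0.46 against -0.081 over all genes. The shares of all genes called lower were 14.6% in density and 4.58% in TE. These counts rest on 1 library per time and were not tested.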
